A study of Mus musculus with 14 samples.

Results

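Adult Lgr5+ intestinal stem cells (ISC) and enterocytes of the mouse small intestine were compared for the histone variant H2A.Z, mapped by chromatin immunoprecipitation and sequencing (ChIP-seq). The peak lists of 2 ISC libraries and 2 enterocyte libraries were merged on chromosomes 1 to 19 wherever peaks overlapped or touched, and a list held a region if it had a peak in it. This gave 35535 regions of genome build mm9, against 44109 when the lists of the whole series, 8 in all, were merged in the same way. ISC replicate 1 held 26224 of the regions and ISC replicate 2 held 31203, against 11482 in enterocyte replicate 1 and 19863 in enterocyte replicate 2.

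Both cell types came from male Lgr5EGFP-Cre-ERT mice of a mixed C57BL/6 CD1 strain at P60 (2 months). ISC were sorted as Lgr5-EGFPhigh cells. Enterocytes were sorted, per the labels, as living EpCAM+ cells without CD31 and CD45, a gate that any epithelial cell of the starting material can pass. The other libraries of the series were from E12.5 and E14.5 embryonic intestinal epithelium of the same mixed strain, also sorted as EpCAM+ cells, with a pair of libraries for each stage. Libraries of 1 stage are described as biological duplicates in the series text, which does not say which animals or pools they came from, so p-values here measure only the spread between these libraries. The lists name no genes and no annotation of mm9 was used here, so the cell type labels were not checked against marker genes and regions are named by position.

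H2A.Z replaces the core histone H2A in a share of nucleosomes and is placed by dedicated remodelling complexes, mostly beside the start sites of active or poised genes and at enhancers. Lgr5+ cells at the crypt base divide and give rise to all epithelial lineages of the intestine. Enterocytes, the absorptive cells of the villus, are a non-dividing product of that lineage. Setting one list against the other therefore asks where H2A.Z enrichment was detected before and after differentiation in the same tissue.

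The lists differed in length and in how they were made. ISC lists held 26299 and 31376 peaks, covering 27.8 and 31.2 Mb, from 31507399 and 37256682 tags. Enterocyte lists held 14113 and 20132 peaks, covering 6.95 and 19.2 Mb, from 37938260 and 41274126 tags. ISC averaged 28837.5 ± 3590 peaks and enterocytes 17122.5 ± 4256 (SD, n = 2 each), a difference with an exact two-sided permutation p of 0.333, the smallest that 2 against 2 libraries allow. The fragment size that the MACS peak caller estimated, which sets how far each tag is extended, was 247 and 228 bp in ISC and 67 and 196 bp in enterocytes. In enterocyte replicate 1 it was close to the tag length of 68 bp, with 584 bp as the caller's other estimate, while the labels describe sonication to fragments between 350 and 700 bp. Each pair of libraries was called against 1 input, with 31649698 tags for ISC and 31049250 tags for enterocytes, so cell type and input cannot be told apart.

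H2A.Z regions found in both enterocyte lists were nearly all H2A.Z regions of ISC, and ISC had many more of their own. A peak in both ISC lists and no enterocyte list was found in 6737 regions (19.0%), and a peak in both enterocyte lists and no ISC list in 105 (0.295%). All 4 lists held 11025 regions (31.0%). In peak lists of sorted cells measured in bulk, fewer cells with H2A.Z, less H2A.Z per cell and a missed peak cannot be told apart. Of the 6842 regions held by both lists of 1 cell type and neither of the other, 98.5% were ISC regions (Wilson 95% interval 98.1 to 98.7%, which covers counting error only). Without enterocyte replicate 1 the merge gave 35476 regions, of which 6804 (19.2%) were in both ISC lists alone, 1649 (4.65%) in enterocyte replicate 2 alone and 16796 (47.3%) in all 3 lists. The ISC share of the one-sided regions was then 80.5% (79.6 to 81.3%). In this setting a region of enterocytes needed a peak in 1 list only, while a region of ISC still needed both, so the shares rest on unlike criteria.

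The mixed patterns were unevenly filled. ISC replicate 2 alone held 6742 regions and ISC replicate 1 alone 2025, against 61 for enterocyte replicate 1 alone and 1542 for enterocyte replicate 2 alone. A further 5772 regions had a peak in both ISC lists and in enterocyte replicate 2, but none in enterocyte replicate 1. The reverse pattern, both ISC lists with enterocyte replicate 1 alone, had 66 regions. Enterocyte replicate 1 was thus close to a subset of enterocyte replicate 2, which held 98.5% of its regions, while the other way round the share was 57.0%. ISC replicate 2 held 90.0% of the regions of ISC replicate 1, which held 75.6% of those of ISC replicate 2.

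**Figure D1:**
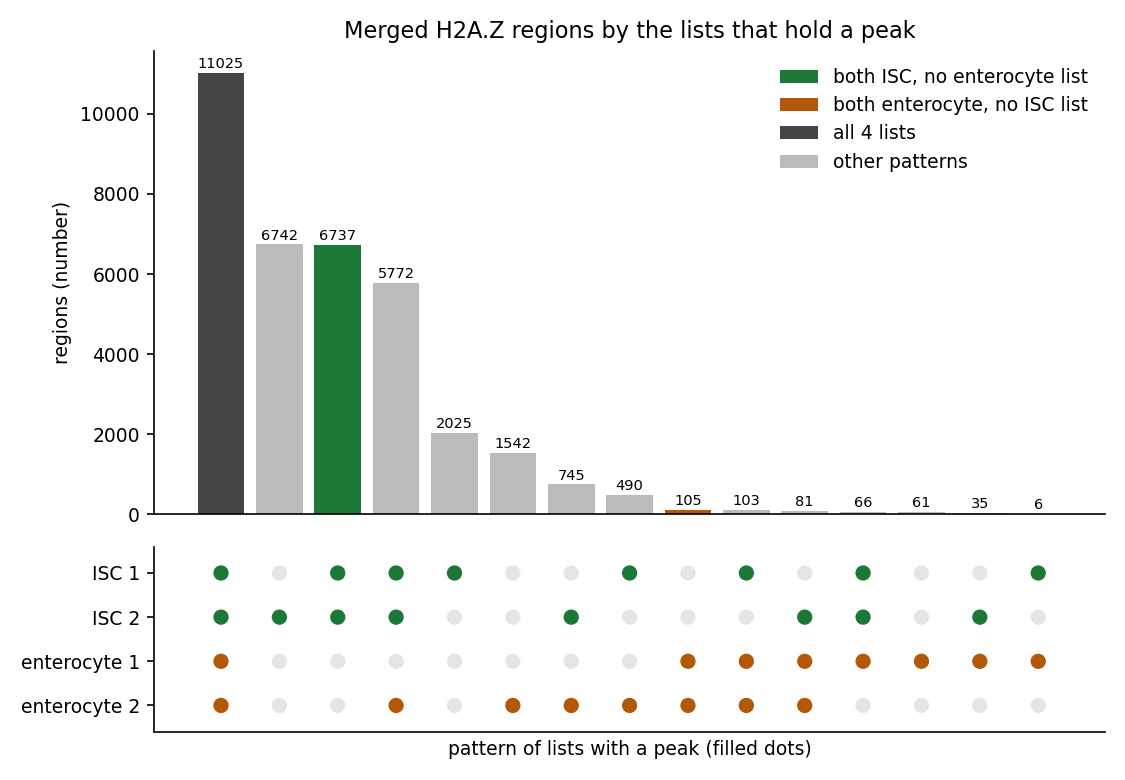
Number of merged regions (vertical axis) for each of the 15 patterns of lists with a peak, with filled dots marking the lists that had one. The 11025 regions of all 4 lists form the tallest bar, and the 6737 regions of both ISC lists alone stand against 105 of both enterocyte lists alone.

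These counts depended on list length and on single libraries. With a library left out, its cell type was judged on 1 list, for presence as for absence. When each list was cut to its 14113 peaks of smallest p, 1640 regions were in both ISC lists alone and 712 in both enterocyte lists alone, an ISC share of 69.7% (67.8 to 71.6%); regions of ISC alone numbered 13590 without ISC replicate 1 and 12520 without enterocyte replicate 2, and regions of enterocytes alone 214 without ISC replicate 1, 186 with ISC replicate 2 left out and 200 without enterocyte replicate 2. At a −log10 q of at least 5, a level reached by 14168 and 15092 peaks in ISC and by 16 and 8072 in enterocytes, 5262 regions were in ISC alone, 1 in enterocytes alone and 14 in all 4 lists, and when peaks had to cover at least 50% of a region the 3 numbers were 8671, 30 and 3183.

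Seen from the stem cells, the share of regions with an enterocyte peak followed the strength of the ISC peak. Of the 23600 regions in both ISC lists, 46.7% had a peak in both enterocyte lists, 24.5% in enterocyte replicate 2 alone, 0.280% in enterocyte replicate 1 alone and 28.5% in neither. These regions were ordered by their fold enrichment, the ratio of ChIP to local background that the caller gives each peak, as a percentile within each ISC list averaged over the pair. In the weakest decile of 2360 regions, 11.0% had a peak in enterocyte replicate 1, 42.1% in enterocyte replicate 2 and 57.4% in neither. In the strongest decile the shares were 93.6%, 99.2% and 0.720%, the last being 17 of 2360 regions. Neither enterocyte library broke this order, and the gap between the replicates was narrowest among the strongest regions.

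Peak length in ISC gave a similar gradient. The shortest decile had a median of 351.5 bp under ISC peaks, and 6.10% of it had a peak in enterocyte replicate 1, 27.5% in enterocyte replicate 2 and 71.9% in neither. In the longest decile, with a median of 2322.5 bp, the shares were 83.4%, 96.6% and 3.39%. The opposite view was nearly flat, since 97.4% of the 11314 regions of both enterocyte lists were in both ISC lists, 1.63% in 1 of them and 0.928% in neither. The weakest decile of enterocyte regions held 46 of those 105 regions without an ISC peak, and the strongest decile held 1.

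**Figure D2:**
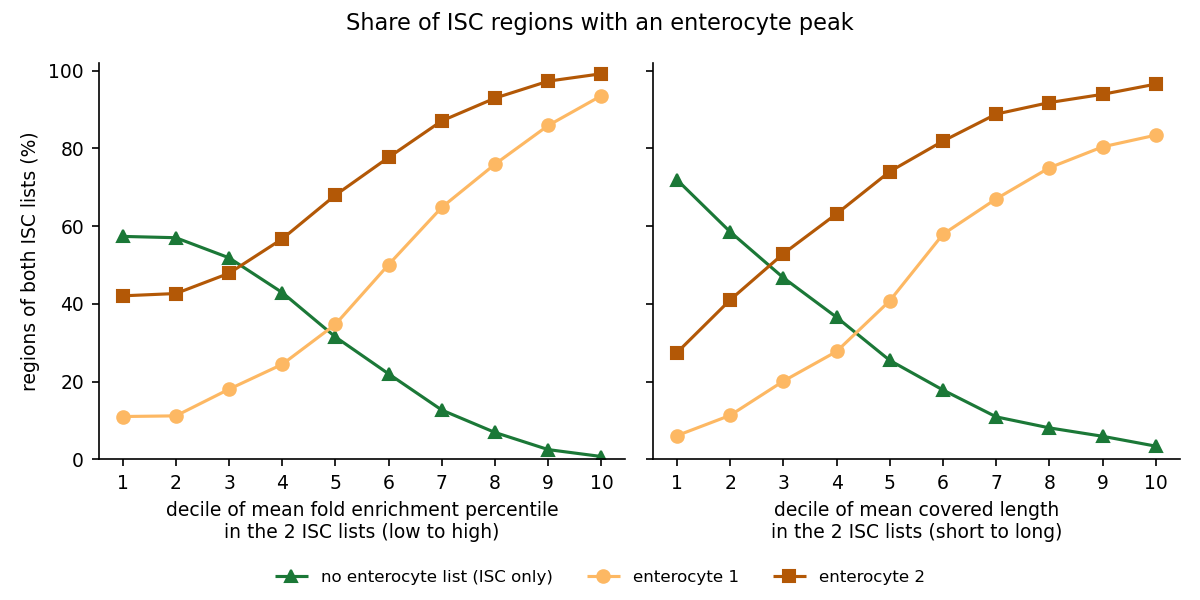
Share of the 23600 regions of both ISC lists (vertical axis, %) with a peak in enterocyte replicate 1, in enterocyte replicate 2 or in no enterocyte list, by decile of ISC fold percentile (left) and of covered length in ISC (right). The share with no enterocyte peak was 57.4% in the weakest decile and 0.720% in the strongest.

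Regions of ISC alone were therefore mostly short and weak, though not all were. Their median fold enrichment was 2.79 and 3.06 in the ISC lists, at the 29.8th and 40.3rd percentile of each list, and their peaks had median lengths of 527 and 593 bp. At regions of all 4 lists the medians were 4.22 and 4.23 in ISC and 4.36 and 4.36 in enterocytes, with median lengths of 1388 and 1416 bp in ISC, against 538 and 1223 bp in enterocytes. Regions of enterocytes alone had median folds of 4.05 and 3.38, at the 27.2nd and 34.9th percentile of each enterocyte list, and lengths of 163 and 547 bp. In the ISC lists, regions of both ISC lists and enterocyte replicate 2 lay between ISC alone and shared, with medians of 3.10 and 3.31. Their median in enterocyte replicate 2 was 3.26.

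A minority of ISC regions without an enterocyte peak were strong. Their mean ISC percentile was above 50 in 1667 of 6737 and above 90 in 17. The strongest, chr12:109661324-109661985, had a fold enrichment of 5.78 and 6.88 over 648 and 626 bp in ISC and no peak in either enterocyte list. The next, chr2:93019817-93020946, had 6.28 and 5.81, and chr12:60196265-60197305 had 5.64 and 5.91. Both ISC libraries placed all 3 above the 95th percentile of their lists. At chr11:102308161-102309026 the fold was 5.17 and 5.91, and at chr1:78508274-78508785 it was 5.07 and 5.96. Embryonic peaks separated the last pair, because the chr11 region had a peak in all 4 embryonic libraries and the chr1 region in E12.5 replicate 1 alone, where its fold was 3.43.

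Among enterocyte regions without an ISC peak, 1 stood far above the rest. The region chr5:143664797-143665298 had a fold enrichment of 6.20 and 9.11 in enterocytes, the value in replicate 2 being the highest of the whole enterocyte replicate 2 list. It also had folds of 7.75 and 6.87 at E14.5 and of 2.17 in E12.5 replicate 2, with no peak in E12.5 replicate 1. The following ones were lower, with 4.69 and 4.27 at chr7:20285749-20287092, 4.96 and 3.83 at chr9:114325771-114326430 and 4.72 and 3.94 at chr12:55713892-55714466. None of these 3 had a peak in any embryonic library. Only 20 of the 105 had a mean percentile above 50 within the enterocyte lists.

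At the 11025 regions of all 4 lists ISC peaks reached beyond enterocyte peaks more than the reverse. Of the bases under peaks of ISC replicate 1, 80.1% were under peaks of enterocyte replicate 2 and 41.2% under peaks of enterocyte replicate 1, against 91.0% under peaks of ISC replicate 2. In the other direction, ISC replicates 1 and 2 held 93.1% and 92.8% of the bases of enterocyte replicate 2. They held 98.5% and 98.2% of those of enterocyte replicate 1. Peak midpoints of ISC replicate 1 and enterocyte replicate 2 were a median of 80 bp apart, against 62 bp between the ISC libraries and 103 bp between the enterocyte libraries.

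The mean ISC length was a median of 1.13 times that of enterocyte replicate 2 (quartiles 0.996 to 1.37). It was at least 2 times as long at 787 regions (7.14%) and at most 0.5 times as long at 72 (0.653%). For ISC replicate 1 over ISC replicate 2 the median ratio was 0.992, with 171 and 170 regions past the same limits. More than 1 peak per region was rare in ISC, at 0.399% and 0.907% of the regions, and reached 22.3% in enterocyte replicate 1 and 1.72% in enterocyte replicate 2. The shorter enterocyte peaks were thus seen in both libraries, and the fragmented ones chiefly in enterocyte replicate 1, whose estimated fragment size was 67 bp; the part of that estimate in the result was not tested.

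Regions of 3 kb or more numbered 585 of the 11025 (5.31%). The width of a merged region is set by the outermost edges of its peaks in any list, so the share of wide regions under the peaks of each cell type is not compared. The longest, chr14:22800956-22810880, had 9849 and 8003 bp under peaks in ISC and 741 and 3483 bp in enterocytes. The next, chr11:23973969-23982672, had 8512 and 8565 bp in ISC and 2917 and 6645 bp in enterocytes. The median fold rank of the 585 regions was 44.4 and 41.3 in ISC and 60.1 and 49.6 in enterocytes, on a scale from 0 to 100 over the shared regions. A region takes the highest fold of its peaks. More than 1 peak was present at 4.96% and 9.57% of the 585 in ISC and at 52.8% and 19.5% in enterocytes. The part of this in the ranks was not tested.

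**Figure D3:**
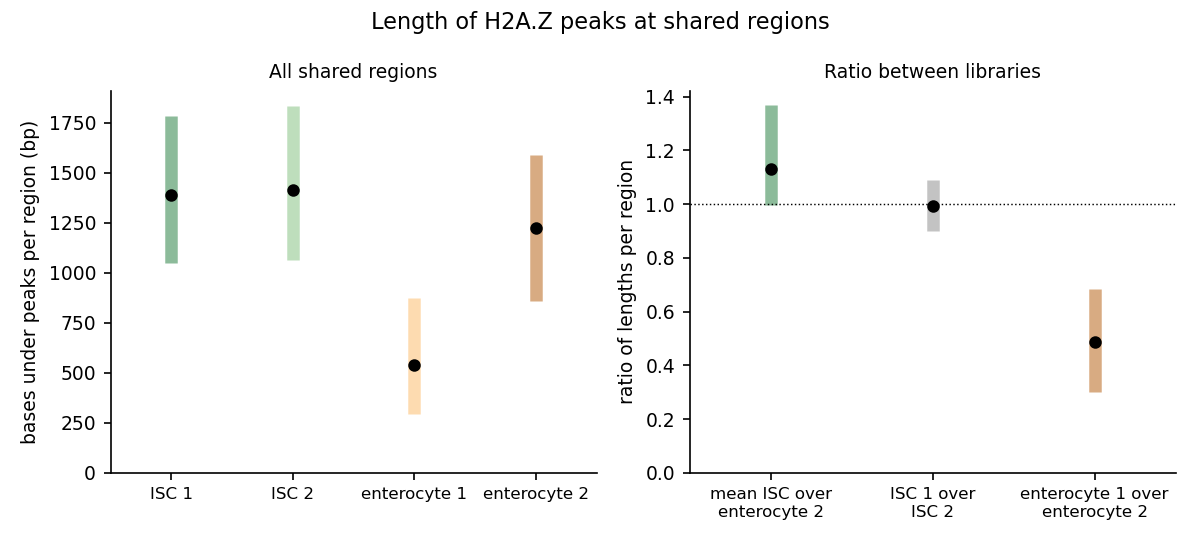
Left, bases under peaks per shared region (bp) in each library, as median (point) and quartiles (bar). Right, ratio of lengths per region, as median (point) and quartiles (bar), with the dotted line at a ratio of 1. The mean ISC length was a median of 1.13 times that of enterocyte replicate 2, against 0.992 for ISC replicate 1 over ISC replicate 2 and 0.489 for enterocyte replicate 1 over enterocyte replicate 2.

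Length ranks gave no region past the threshold of limma's moderated test, which compared ISC minus enterocyte on normal scores of the rank within each library with Benjamini-Hochberg adjustment over all 11025 regions. At an unadjusted p under 0.05 it had 702 regions longer (6.37%) and 466 shorter (4.23%) in rank in ISC. The ranges of the cell types did not overlap at 2071 regions (18.8%) that ranked longer in ISC and at 3287 (29.8%) that ranked shorter. Leaving out ISC replicate 1 gave 13 longer and 1 shorter, leaving out ISC replicate 2 gave 12 and 1, and leaving out enterocyte replicate 1 gave 0 and 0 (1627, or 9.69%, and 1042, or 6.20%, of 16796 at an unadjusted p under 0.05). The tested quantity was the order of lengths within a library, not the length itself.

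The order of fold enrichment at shared regions was less alike between the cell types than within either, which did not hold for pileup or length. Spearman's correlation of fold enrichment across the 11025 regions was 0.871 between the ISC libraries and 0.637 between the enterocyte libraries. Between the cell types it was 0.372 and 0.559 for ISC replicate 1, and 0.323 and 0.489 for ISC replicate 2, with enterocyte replicate 1 and 2 in that order. Libraries of a pair shared their input, and regions are not independent, so these values are a description. Pileup, the height of the tag coverage, gave 0.866 within ISC, 0.677 within enterocytes and 0.528 to 0.734 between them. Length gave 0.841 within ISC, 0.594 within enterocytes and 0.466 to 0.761 between them. For both measures enterocyte replicate 2 was closer to each ISC library than to enterocyte replicate 1.

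By fold rank, 542 shared regions were higher (4.92%) and 446 lower (4.05%) in ISC than in enterocytes at an adjusted p under 0.05 in limma. Both libraries of a cell type shared 1 input, so noise of the input is outside the spread that limma's p-values on fold rest on. The ranges of the 2 cell types did not overlap at 3228 regions (29.3%) that ranked higher and 3411 (30.9%) that ranked lower. In the higher group the median fold was 5.36 and 5.48 in ISC and 3.96 and 3.74 in enterocytes, and the median difference in rank was 56.5 points. In the lower group it was 3.34 and 3.29 in ISC and 4.83 and 5.03 in enterocytes, with a median difference of -52.8 points. Without enterocyte replicate 1, limma called 1591 of 16796 regions higher (9.47%) and 1377 lower (8.20%), with the lone enterocyte library taken to vary like ISC.

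**Figure D4:**
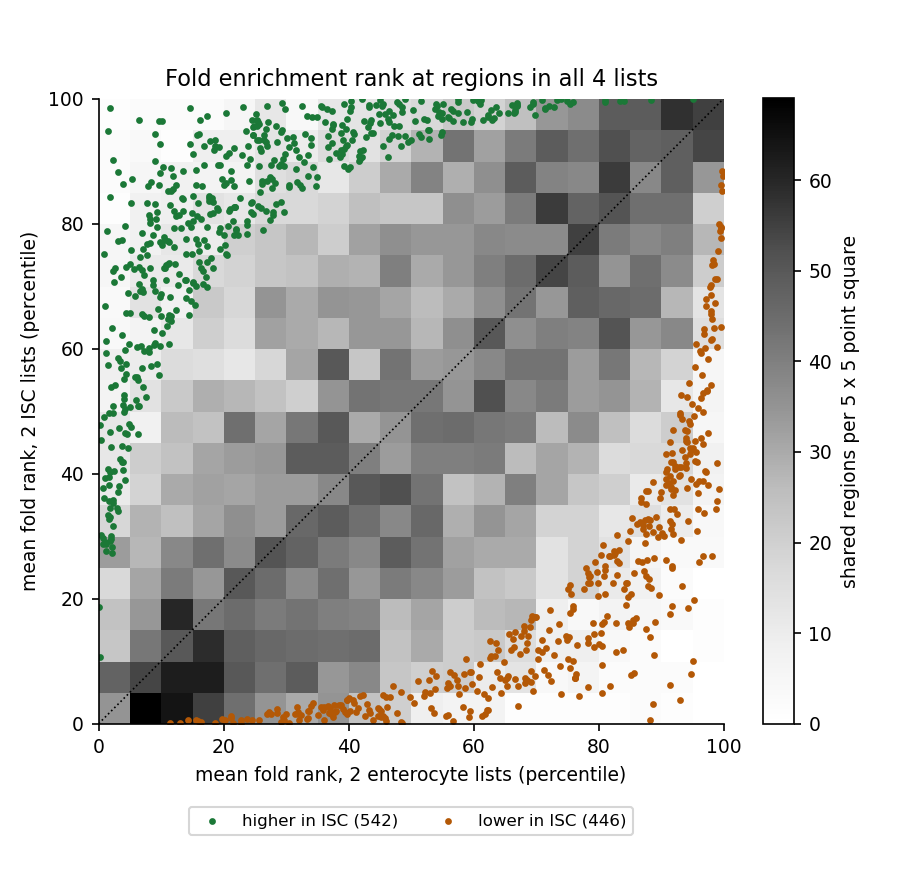
Mean fold enrichment rank (percentile among the 11025 shared regions) in the ISC libraries (vertical axis) against the enterocyte libraries (horizontal axis). Grey squares count regions, and points mark the 542 regions called higher and the 446 called lower in ISC by limma, at rank differences from 4.80 to 96.8 points and from -89.3 to -11.2 points. Uncalled regions ranged from -56.9 to 59.4 points, so size of the difference alone did not separate called from uncalled regions.

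The region with the widest gap was chr4:19934577-19936152. Its fold enrichment was 7.13 and 6.60 in ISC and 3.69 and 2.78 in enterocytes, at ranks 99.2 and 97.9 in ISC and 3.23 and 0.322 in enterocytes. The difference in normal score was 4.50 ± 0.44 (SE), with an adjusted p of 0.00814 in limma. Its peaks were 1470 and 1576 bp long in ISC and 128 and 506 bp in enterocytes, while its pileup rank did not separate the cell types, at 91.3 and 83.4 in ISC and 90.6 and 66.5 in enterocytes. Next came chr6:38203318-38204892, with folds of 6.02 and 6.20 in ISC, against 3.54 and 3.05 in enterocytes (normal score difference 3.84 ± 0.40, adjusted p = 0.00814 in limma). At chr19:41459049-41459989 the folds were 6.24 and 6.50 in ISC and 3.92 and 2.97 in enterocytes. At chr2:142887118-142889474 they were 6.56 and 7.45 in ISC and 3.84 and 3.74 in enterocytes, under long peaks of 2235 and 2250 bp in ISC, against 675 and 1930 bp in enterocytes. In each of these 4 regions the lower ISC rank was above the higher enterocyte rank.

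In the other direction, chr7:25669078-25670170 had folds of 2.91 and 2.32 in ISC, against 4.98 and 6.07 in enterocytes. Its normal score difference was -3.62 ± 0.49, with an adjusted p of 0.0137 in limma. At chr7:7230282-7231104 the folds were 2.29 and 2.42 in ISC and 5.02 and 5.32 in enterocytes (-3.75 ± 0.40, adjusted p = 0.00814 in limma), on peaks of 670 and 471 bp in ISC, against 645 and 786 bp in enterocytes. At chr1:95132175-95133089 they were 3.06 and 2.87 in ISC and 5.06 and 6.19 in enterocytes. The region chr11:118336809-118339434 had 2.65 and 2.71 in ISC and 5.83 and 5.04 in enterocytes. The fold ranks of these 4 regions were between 0.349 and 10.5 in the ISC libraries and between 77.6 and 99.8 in the enterocyte libraries.

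Some shared regions held their place in every library. The region with the highest mean fold rank over the 4 lists, chr3:32263714-32265445, reached folds of 8.52 and 9.12 in the ISC lists against 5.67 and 7.26 in the enterocyte lists, above rank 99 throughout. It was followed by chr6:120480746-120482488, with 8.16 and 8.28 in ISC and 5.45 and 7.22 in enterocytes. The fold values themselves are not comparable between lists, whose backgrounds and fragment sizes differ.

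The calls on fold rank depended on the rank scale and on single libraries. With ranks taken within each full list 126 regions were higher and 18 lower, with percentile ranks in place of normal scores none passed in either direction (1580 and 1502 at an unadjusted p under 0.05), and leaving out ISC replicate 1, ISC replicate 2 or enterocyte replicate 2 gave 104, 76 or 1957 higher and 41, 34 or 1915 lower.

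Pileup ranks moved the same way as fold ranks at most of the called regions, though no region passed limma's threshold on pileup itself. Both measures come from the same tag coverage, so pileup is no independent check on regions selected by fold. The mean pileup rank was higher in ISC at 423 of the 542 regions (78.0%) and lower at 396 of the 446 (88.8%). The libraries' pileup ranges did not overlap at 319 of the 542 in the same direction and 49 in the opposite one, and at 298 of the 446 in the same and 15 in the opposite one. Over all shared regions the ranges did not overlap at 2783 (25.2%) that ranked higher and 2785 (25.3%) that ranked lower. Limma gave 993 higher (9.01%) and 966 lower (8.76%) by pileup at an unadjusted p under 0.05. It called 830 of 16796 higher (4.94%) and 695 lower (4.14%) without enterocyte replicate 1, and 1246 and 1233 without enterocyte replicate 2.

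Among the shared regions, the highest pileup in ISC replicate 1 belonged to a pair of regions of low enrichment, singled out after their values were seen. At chr11:3044920-3047608 the pileup was 206 and 188 in ISC and 56.3 and 126 in enterocytes, with folds of 1.49 and 1.51 in ISC, against 1.79 and 1.40 in enterocytes. The neighbouring chr11:3059633-3060155 had 187 and 183 in ISC and 79.7 and 155 in enterocytes, also with folds under 2. Tag coverage was high there and enrichment over the background low in all 4 libraries.

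The embryonic libraries, which had no part in choosing the regions, set the classes apart. A peak in both E12.5 libraries was present at 36.0% of the regions of ISC alone (34.9 to 37.2%), at 86.5% of those in all 4 adult lists and at 7.62% of those of enterocytes alone (3.91 to 14.3%, 8 of 105). For both E14.5 libraries the shares were 5.34%, 36.3% and 1.90%. Few of these regions could be in both, since the list of E14.5 replicate 2 held 5999 peaks, and in E14.5 replicate 1 alone they were 29.6%, 83.7% and 3.81%. No embryonic peak at all was found at 45.6% of the regions of ISC alone, 7.29% of the shared ones and 83.8% of those of enterocytes alone. Without enterocyte replicate 1 the 1649 regions of enterocytes alone had a peak in both E12.5 libraries in 3.64% of cases and no embryonic peak in 89.4%. The 16796 shared regions of that setting had a peak in both E12.5 libraries in 74.0% of cases, in both E14.5 libraries in 27.5% and no embryonic peak in 16.4%, and for the 6804 regions of ISC alone the shares were 36.1%, 5.35% and 45.6%.

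Since weak ISC regions less often had an enterocyte peak, the classes were also set side by side within quintiles of ISC fold percentile over the 23600 regions of both ISC lists. In the weakest quintile, 27.1% of the regions of ISC alone and 37.5% of the shared ones had a peak in both E12.5 libraries. In the middle quintile the shares were 46.0% and 79.5%, and in the strongest 84.2% and 98.0%. At E12.5 the shared regions had the higher share in each of the 5 quintiles, with intervals that did not overlap. For both E14.5 libraries the weakest quintile showed no such gap, with 2.41% of the regions of ISC alone (1.89 to 3.06%) and 2.58% of the shared ones (1.51 to 4.36%). In the other 4 quintiles the shared regions had the higher E14.5 share without overlap, with 8.16% and 18.1% in the middle quintile and 39.5% and 57.7% in the strongest for ISC alone and shared regions. Regions near each other are not independent, which these intervals leave out of account. The quintiles set the classes side by side by ISC fold only, not by width, and strength could still differ within a quintile. Of the regions of ISC alone in the strongest quintile, 59 were in its weaker decile and 17 in its stronger. Taken over all quintiles, shared regions were the wider class, spanning 1576 bp at the median, while those of ISC alone spanned 709 bp. A wider region has more room for an embryonic peak, and the parts of width and of strength within quintiles in these gaps were not tested.

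Among the shared regions, those called higher by fold rank in ISC more often had an embryonic peak than those called lower. Those called higher were also stronger in ISC, with median ISC fold ranks of 84.8 and 87.5 against 17.5 and 15.3 for those called lower. The E12.5 share of shared regions rose with ISC fold, as given above, and the groups were not compared at equal ISC strength. A peak in both E12.5 libraries was found at 95.2% of the 542 regions ranked higher in ISC (93.1 to 96.7%) and at 76.0% of the 446 ranked lower (71.8 to 79.7%), with 86.5% at the 10037 uncalled shared regions. For both E14.5 libraries the shares were 54.6%, 22.0% and 35.9% in the higher, lower and uncalled groups, and in E14.5 replicate 1 alone they were 94.3%, 68.2% and 83.9%. No embryonic peak was found at 1.85%, 14.6% and 7.26%. Where a peak was present, the median percentile of its fold within the list was 81.8, 61.3 and 72.9 in E12.5 replicate 1, 75.1, 59.1 and 68.3 in E12.5 replicate 2, and 72.4, 49.0 and 58.2 in E14.5 replicate 1, in the same order of groups. E14.5 replicate 2, with an estimated fragment size of 71 bp, had 48.5, 42.8 and 48.7, so there the higher group did not stand above the uncalled regions. The groups called without enterocyte replicate 1 had a peak in both E12.5 libraries at 79.5% of the 1591 and 65.4% of the 1377 regions, against 74.3% of the 13828 uncalled ones. For both E14.5 libraries these shares were 35.6%, 19.4% and 27.4%, and no embryonic peak was found at 199 of the 1591, 310 of the 1377 and 2238 of the 13828 regions.

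**Figure D5:**
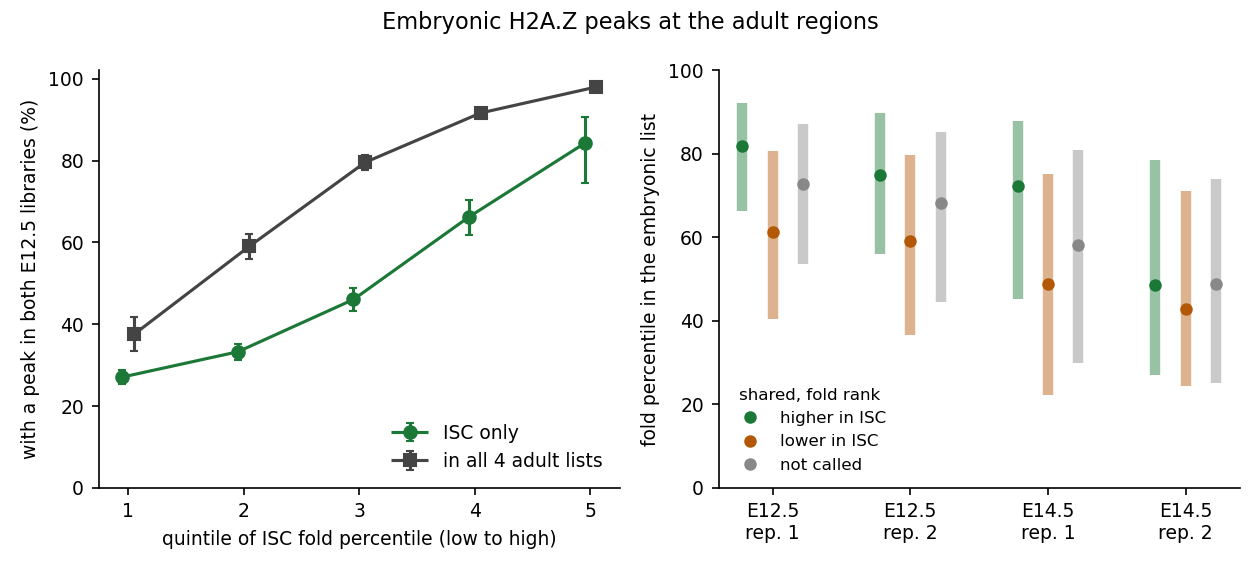
Left, share of regions with a peak in both E12.5 libraries (%, Wilson 95% intervals) for regions of ISC alone and of all 4 adult lists, by quintile of ISC fold percentile. Right, fold percentile within each embryonic list (median and quartiles) for shared regions called higher, called lower or not called by fold rank in ISC. The higher group's median was above the lower group's in all 4 embryonic libraries and above the uncalled regions' in 3 of them, with 48.5 against 48.7 in E14.5 replicate 2.

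Across all shared regions with a peak in the embryonic list, Spearman's correlation of fold with E12.5 replicate 1 was 0.449 and 0.434 in ISC and 0.207 and 0.318 in enterocytes (10040 regions). With E12.5 replicate 2 it was 0.341 and 0.359 in ISC and 0.186 and 0.262 in enterocytes (9611 regions). With E14.5 replicate 1 it was 0.301 and 0.348 in ISC and 0.152 and 0.218 in enterocytes (9233 regions). Both ISC libraries were above both enterocyte libraries against each of these 3 lists, as a description with no test. The enterocyte libraries also agreed less with each other in fold, at 0.637 against 0.871 within ISC. The part of this difference in the order was not tested.

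By position, regions of ISC alone were spread over every autosome. They made up 17.5% of the regions of chromosome 2, the lowest share, and 20.5% of those of chromosome 14, the highest. Shared regions ranged more widely, with 38.0% on chromosome 7 and 25.6% on chromosome 18. The nearest shared region was a median of 48887 bp from a region of ISC alone, 20769 bp from one of enterocytes alone, 37280 bp from one of both ISC lists and enterocyte replicate 2, and 31142 bp from another shared region. Within 10 kb of a shared region lay 978 of the 6737 regions of ISC alone and 31 of the 105 of enterocytes alone.

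The number of regions of ISC alone varied along the chromosomes. Of 2144 windows of 1 Mb with at least 1 region of any pattern, 378 held none of them, the median held 2 and the fullest, on chromosome 9 from 107 to 108 Mb, held 17 among 46 regions. The longest stretch in which successive regions of both ISC lists had no enterocyte peak was on chromosome 18, with 10 regions over 340 kb. Stretches of 9 such regions lay at chr5:132057297-132871496, chr1:191751148-192272700 and chr14:76564391-76779348. The first of these 3 spanned 814 kb and the last 215 kb. These stretches are extremes chosen by their length, and no chance arrangement was set beside them.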

How the data were processed

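H2A.Z ChIP-seq peak lists of 2 ISC and 2 enterocyte libraries were used, with the 4 embryonic lists for comparison. Per the file headers, the authors called broad peaks for each library against its input with MACS 2.1.0.20140616 (q cutoff 0.05, model fold from 10 to 30). Bowtie 1.1.2, SAMtools 1.2, bcl2fastq 1.8.4 and build mm9 are listed in the submitters' processing notes. Pileup is a coverage signal, fold enrichment a ratio to local background, and the −log10 p and −log10 q measure the evidence against the input, all deposited by the authors per peak. They were used only within a list or as ranks. Adult tag depth was 31507399 to 41274126.

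Peaks on 19 autosomes were merged where they overlapped by 1 bp or touched. A region took the highest fold and pileup of its peaks and their summed length. List percentiles ran over all peaks of a list, with a region taking the highest of its peaks, and ranks at shared regions over the 11025. Ranks were turned into normal scores and tested with limma 3.58.1 in R 4.3.3, ISC minus enterocyte, with Benjamini-Hochberg adjustment at 0.05. The fit was tested on simulated data. Other computations used Python 3.11.15, pandas 2.3.3, numpy 2.4.6, scipy 1.17.1 and matplotlib 3.10.9. Positions are 1-based.

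The members, lists and tests were chosen with earlier results of these data known. Regions named in the text were the 10 strongest of each one-sided class by mean list percentile of fold, the 10 with the widest difference in fold rank in each direction among those called, the 5 longest shared regions and the 5 with the highest mean fold rank, of which a part is printed. The pair of regions of highest pileup, the fullest window and the longest stretches without an enterocyte peak were chosen after their values were seen. Replicate numbers were not used as pairs. Alternatives covered the q threshold, coverage, merging distance, list length, rank scale, region value and each library left out. Gene names and sequences were not reported because the reference given is of another build, and sex chromosomes were left out of the comparisons.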

Additional observations from a re-analysis of the deposited data

Results flagged for a closer look

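The sex chromosomes lie outside the comparisons, and the adult lists held peaks on both. The X chromosome had 755 merged regions, of which 238 were in both ISC lists alone (31.5%), 0 in both enterocyte lists alone and 120 in all 4 lists (15.9%). Its peaks numbered 607 and 732 in ISC and 143 and 347 in enterocytes. The Y chromosome had 22 regions, of which 15 were in both ISC lists alone and 0 in both enterocyte lists alone or in all 4 lists, from 19 and 23 peaks in ISC and 0 and 4 in enterocytes. All adult mice were male. On the autosomes regions of ISC alone made up 19.0% and shared ones 31.0%, and the part of list length in these differences was not tested.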

How the results depend on the processing

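No region named by fold rank reversed its direction under an alternative in which it was still found. For regions named as one-sided a reversal was not possible. The alternatives only took away peaks, libraries or regions, or joined neighbouring regions. Regions of both kinds were chosen as extremes. The counts have no direction that could reverse, and several changed widely. Of the regions of ISC alone (6737), 1640 were left with lists of equal length, and leaving out 1 library gave 6804 to 13590. Regions of enterocytes alone (105) numbered 1 at a −log10 q of at least 5, 30 with at least 50% of the region under peaks, 712 with lists of equal length, 66 among regions of at least 500 bp and 186 to 1649 without 1 library. Regions of all 4 lists (11025) numbered 14 at the stricter q, 3183 at 50% coverage and 11082 to 16796 without 1 library. Of shared regions ranked higher and lower by fold (542 and 446), 126 and 18 were called with ranks within the full list and 0 and 0 with percentile ranks. Leaving out 1 library gave 76 to 1957 higher and 34 to 1915 lower, and the replicate block 778 and 687. By pileup (0 and 0), the replicate block called 250 and 216, leaving out 1 library 0 to 1246 and 0 to 1233, and weighting peaks by length or keeping regions with 1 peak per list 1 lower. By length (0 and 0), the block called 150 and 16, and leaving out 1 library 0 to 13 and 0 to 1. Deviations of same-numbered libraries correlated at -0.0471 for fold, 0.00905 for pileup and -0.0406 for length. With 1 pair of deviations per measure, these values cannot tell whether same-numbered libraries shared animals or pools. With a peak in at least 1 library of the stage, the E12.5 shares were 52.0% for ISC alone, 91.8% for shared regions and 16.2% for enterocytes alone, and the E14.5 shares of the first 2 classes 30.0% and 83.9%. Of the 20 regions named by fold rank, all lost the call with percentile ranks, where the differences were still 83.0 to 96.8 points for the 10 higher and -89.3 to -75.9 points for the 10 lower, and the adjusted p was 0.0521 for each in limma, 4 with ranks in the full list, 1 without ISC replicate 1 and 3 without ISC replicate 2. The cause of these changes was not tested. Tags numbered 31507399 and 37256682 in ISC and 37938260 and 41274126 in enterocytes. Enterocyte replicate 1 had 16 peaks past the stricter q, which limits what that list can show there. Promoter shares were not run, as no annotation of mm9 was used here.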
